A study of Mus musculus with 6 samples.

Results

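The genes described here are 36 mouse genes of fatty acid and triglyceride synthesis and of the lipid droplet, measured in the livers of mice exposed to cadmium. They were chosen by symbol from a list of known pathway genes, and all 36 were found among the 34352 genes that carry a symbol in the deposited tables. Of these, 30 had at least 1 FPKM (fragments mapped to a gene, corrected for its length and the library's size) in at least 3 of the 6 libraries and were tested among 9908 genes. The exposed group consisted of wild-type male C57BL/6 mice gavaged with cadmium chloride at 20 mg/kg/day, with liver sampled on day 90, and the control group received 0 mg/kg/day and was otherwise the same. Mice were 6 to 8 weeks old, 6 were assigned to each group, and 3 libraries per group are used here, 1 of each group in each of 3 labelled batches. How mice were allotted to libraries is not stated in the labels, and the p-values reflect only the variation from library to library, which may be technical. The libraries are the input fraction of an immunoprecipitation of RNA carrying N6-methyladenosine (m6A), which the labels describe as the RNA that the antibody left unbound, so a change in abundance and a change in the share bound cannot be told apart. In whole liver, fewer cells of a type and less RNA per cell cannot be told apart either.

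The liver makes fatty acids from acetyl-CoA when carbohydrate is plentiful. ATP-citrate lyase and acetyl-CoA synthetase supply the acetyl-CoA, acetyl-CoA carboxylase turns it into malonyl-CoA, and fatty acid synthase builds palmitate, which elongases and desaturases then lengthen and desaturate. Acyltransferases, lipins and diacylglycerol acyltransferases join the products to glycerol, and the triglyceride is stored in droplets coated by perilipins. In hepatocytes the transcription factor SREBP-1c, from Srebf1, responds to insulin, and ChREBP, from Mlxipl, responds to sugars.

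The libraries held between 42115960 and 68587128 recovered reads. Cadmium replicate 2 and control replicate 1 stood apart: mitochondrial rRNA held 0.277% and 0.265% of their reads, against 0.782% to 1.18% in the other 4 libraries, and Alb, which encodes albumin, held 2.91% and 2.87%, against 4.89% to 5.06%. The metallothionein gene Mt1, induced by cadmium, had 378, 729 and 586 FPKM in cadmium replicates 1, 2 and 3, against 7.39, 21.4 and 41.3 FPKM in control replicates 1, 2 and 3, so each library matched its treatment label. Xist, transcribed from the inactive X of females, was present in all 6 libraries at 27.1 to 35.5 FPKM in cadmium and 19.7 to 25.8 FPKM in controls, which goes against the labelled male sex. The hepatocyte markers Alb, Ttr and Apoa1 were present in every library.

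Promoters of 5 genes are printed for description, and no result below rests on them. They belong to the elongase gene and the perilipin gene that were called, and to 3 genes of acetyl-CoA supply and palmitate synthesis with contrasting values. Each window holds 300 bases, from 250 before to 50 after a RefSeq transcription start on GRCm38.p6, read 5′ to 3′ on the gene's strand. Capitals mark the E-box CACGTG, a site for ChREBP, USF and clock factors, and the NF-Y box, written as CCAAT or as ATTGG on the other strand; matches may overlap.
Elovl5, chr9:77917115-77917414, plus strand: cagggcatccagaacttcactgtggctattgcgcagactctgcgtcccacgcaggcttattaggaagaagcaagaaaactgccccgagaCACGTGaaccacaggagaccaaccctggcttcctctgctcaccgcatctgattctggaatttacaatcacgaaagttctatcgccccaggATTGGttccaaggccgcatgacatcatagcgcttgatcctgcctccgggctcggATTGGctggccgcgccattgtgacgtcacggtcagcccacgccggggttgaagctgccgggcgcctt
Plin3, chr17:56290462-56290761, minus strand: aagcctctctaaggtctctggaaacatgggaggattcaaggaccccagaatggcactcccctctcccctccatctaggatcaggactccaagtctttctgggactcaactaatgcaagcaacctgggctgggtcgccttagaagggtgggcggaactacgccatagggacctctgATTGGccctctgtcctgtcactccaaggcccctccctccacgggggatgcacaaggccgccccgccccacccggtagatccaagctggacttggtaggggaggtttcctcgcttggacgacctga
Fasn, chr11:120824498-120824797, minus strand: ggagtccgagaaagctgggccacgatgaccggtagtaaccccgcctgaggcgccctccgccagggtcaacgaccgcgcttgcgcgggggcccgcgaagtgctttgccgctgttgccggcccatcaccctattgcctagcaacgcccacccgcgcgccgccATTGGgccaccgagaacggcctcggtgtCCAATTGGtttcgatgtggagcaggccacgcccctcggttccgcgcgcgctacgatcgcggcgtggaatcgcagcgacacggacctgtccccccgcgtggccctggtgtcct
Acss2, chr2:155517793-155518092, plus strand: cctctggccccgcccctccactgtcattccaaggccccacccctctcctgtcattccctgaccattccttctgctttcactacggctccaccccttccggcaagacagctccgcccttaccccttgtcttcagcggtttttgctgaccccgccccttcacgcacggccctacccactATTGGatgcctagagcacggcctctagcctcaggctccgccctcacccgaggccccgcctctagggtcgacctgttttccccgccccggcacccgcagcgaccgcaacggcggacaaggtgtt
Thrsp, chr7:97417501-97417800, minus strand: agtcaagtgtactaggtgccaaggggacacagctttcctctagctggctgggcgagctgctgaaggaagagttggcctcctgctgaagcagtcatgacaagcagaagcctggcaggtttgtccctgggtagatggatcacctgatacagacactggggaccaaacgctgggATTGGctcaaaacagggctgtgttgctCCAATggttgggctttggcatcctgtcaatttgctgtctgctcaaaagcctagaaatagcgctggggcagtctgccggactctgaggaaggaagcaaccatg

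The Elovl5 window held 1 E-box and 2 NF-Y boxes, the Fasn window 3 NF-Y boxes of which 2 overlap, the Thrsp window 2, and the Plin3 and Acss2 windows 1 each. The Plin3 window lies at a RefSeq start inside the gene as annotated by GENCODE, which begins at 56292873 on the minus strand. RefSeq promoters were matched for 30 of the 36 genes, with 43 windows in all. Of these windows 53.5% held an NF-Y box, against 37.4% of all 32851 windows of the same length and 37.6% of the windows of tested genes. The E-box stood in 5 of the 43 windows (11.6%), against 7.15% of all windows and 10.4% of those of tested genes, and its genes were Elovl5, Lpin2, Mlxipl, Plin2 and Pnpla5. The nuclear receptor site AGGTCA stood in 27.9% of the windows, against 16.3% of all and 13.3% of those of tested genes. The Sp1 box GGGCGG stood in 58.1%, against 35.7% of all and 62.8% of those of tested genes. Sp1 boxes are not marked above: the Plin3 window held 3, the Acss2 window 5 and the other printed windows 0. The sterol element TCACNCCAC was found in the Mlxipl window alone, and the DR1 element, a direct repeat of AGGTCA, in no window. N stands for any base, and both strands were searched. These matches describe letters in the windows, and binding was not measured.

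Of the 30 genes tested, 2 rose in cadmium livers and 0 fell, by limma on log2(FPKM + 1) with Benjamini-Hochberg adjustment over all 9908 genes and a threshold of 0.05. Across the 9908 genes 7.86% (779) passed as higher and 1.82% (180) as lower, 9.68% in all, and 2 of 30 is near that share. Other scalings moved this split over all genes to 347 higher and 298 lower after quantile normalization, 510 and 233 after upper quartile scaling, 386 and 292 after median of ratios scaling, and 381 and 493 on the deposited log2 values. The 2 genes were Elovl5, an elongase of polyunsaturated fatty acids, and Plin3, a perilipin that coats small and nascent droplets, and both were called under each of these scalings. The median log2 fold change of the 30 genes was 0.21, against 0.09 for all genes tested. Cadmium and control libraries did not overlap for 4 of the 30 genes (Elovl2, Elovl5 and Plin3 higher in cadmium, Thrsp lower), against 33.6% of all genes.

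**Figure D1:**
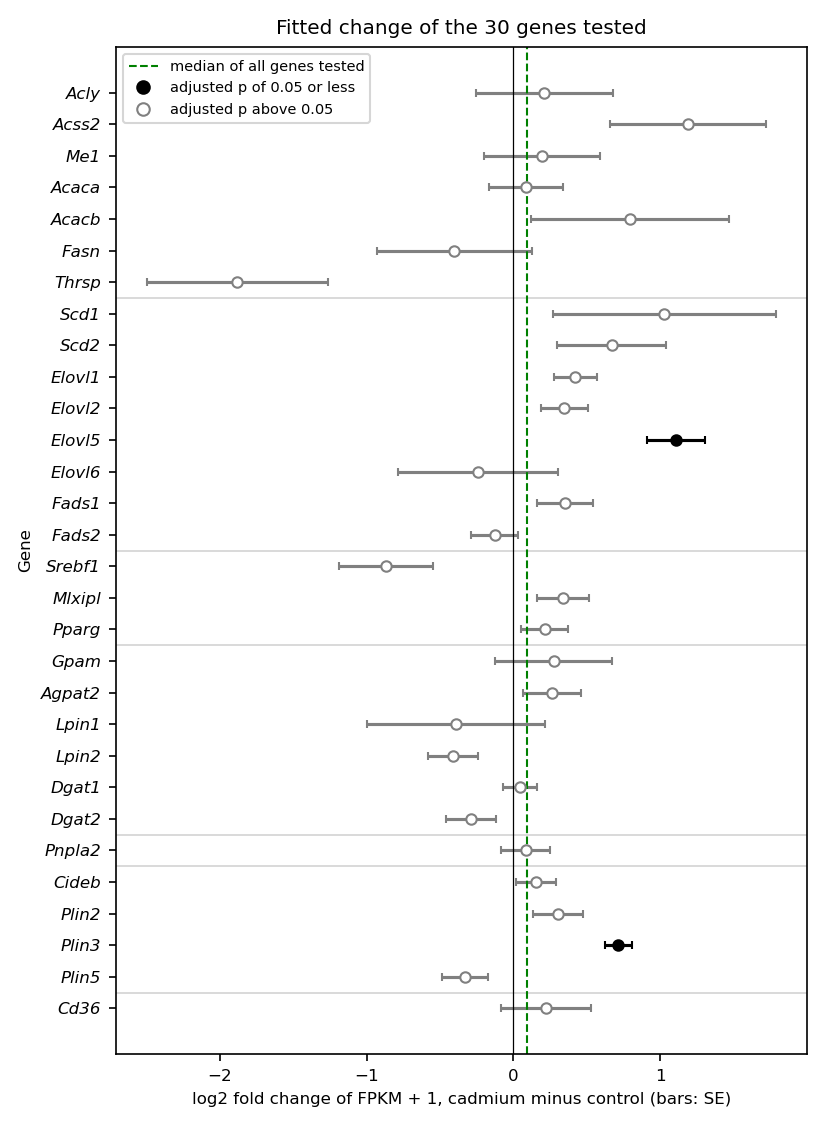
Log2 fold change of cadmium over control for each of the 30 genes tested, on the log2(FPKM + 1) scale, with its standard error and grouped by role. Elovl5 at 1.11 and Plin3 at 0.71 were called, while Thrsp at -1.88 and Acss2 at 1.19 lay farther from 0 with standard errors of 0.61 and 0.53.

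Among the genes of acetyl-CoA supply and palmitate synthesis, 0 of 7 passed the test, and their median log2 fold change was 0.20. Fasn, which encodes fatty acid synthase, had 228, 75.7 and 110 FPKM in cadmium replicates 1, 2 and 3, against 169, 95.9 and 273 FPKM in control replicates 1, 2 and 3. The groups overlapped across most of their range, and the log2 fold change was -0.40 (SE 0.53, adjusted p = 0.680, limma). Thrsp, also called Spot 14, encodes a protein that accompanies lipogenesis. It had 77.0, 19.5 and 29.0 FPKM in cadmium livers, against 134, 77.6 and 224 FPKM in control livers. Every cadmium library lay below every control library, though cadmium replicate 1 and control replicate 2 came within 1 FPKM of each other. The log2 fold change of Thrsp was -1.88 (SE 0.61) and missed the threshold at an adjusted p of 0.122, with differences of -0.79, -1.94 and -2.91 in batches 1, 2 and 3.

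Acss2, named here after its values were seen, encodes the cytosolic acetyl-CoA synthetase, which makes acetyl-CoA from acetate. It had 55.6, 15.7 and 28.3 FPKM in cadmium livers, against 16.3, 7.01 and 15.8 FPKM in control livers. Cadmium was higher in each batch, by 1.71, 1.06 and 0.80 on the log2 scale, but the lowest cadmium library lay within the control range and the adjusted p was 0.225 (log2 fold change 1.19, SE 0.53). Acly, the ATP-citrate lyase gene, averaged 79.6 ± 43.7 FPKM in cadmium and 64.6 ± 21.3 FPKM in controls (SD, n = 3 each). Acaca and Acacb, the genes of both acetyl-CoA carboxylases, had log2 fold changes of 0.08 (SE 0.25) and 0.79 (SE 0.67). Me1, the gene of the malic enzyme that supplies NADPH, had 0.20 (SE 0.40).

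**Figure D2:**
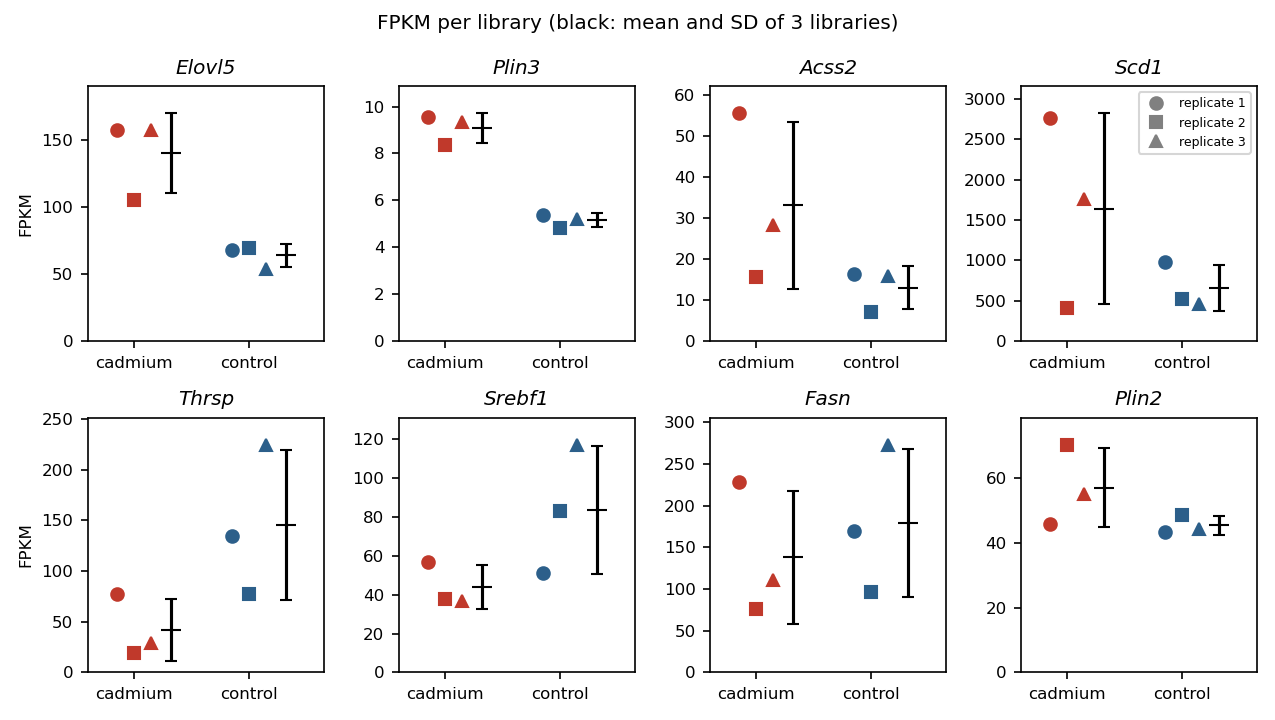
FPKM of 8 genes in each library, cadmium left of control, with a symbol for each replicate and the mean and SD of the 3 libraries in black. The groups are separate for Elovl5, Plin3 and Thrsp and overlap for Fasn, Scd1 and Acss2.

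Of the 8 elongases and desaturases, 1 rose, 0 fell and 7 did not pass the test, and the median log2 fold change was 0.39. Elovl5 (ENSMUSG00000032349, chromosome 9, 77917364 to 77984519, plus strand, GRCm38), whose promoter is printed above, had 158, 106 and 158 FPKM in cadmium livers, against 67.9, 69.8 and 53.9 FPKM in control livers. The lowest cadmium library exceeded the highest control library, and the means were 140 ± 29.9 FPKM in cadmium and 63.9 ± 8.69 FPKM in controls (SD, n = 3 each). The log2 fold change was 1.11 (SE 0.20, adjusted p = 0.0203, limma), and it was 1.20, 0.59 and 1.53 in batches 1, 2 and 3. With the batch number as a replicate block the adjusted p was 0.0668, and it was 0.0665 without cadmium replicate 1, 0.0875 without cadmium replicate 3 and 0.0645 without control replicate 3.

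Scd1 encodes the main hepatic stearoyl-CoA desaturase, which makes monounsaturated from saturated fatty acids, and had the highest mean FPKM of the 36 genes. It had 2763, 406 and 1755 FPKM in cadmium livers, against 977, 525 and 452 FPKM in control livers. Cadmium replicates 1 and 3 exceeded every control library, while cadmium replicate 2 lay below all 3. The log2 fold change was 1.03 (SE 0.76, adjusted p = 0.446, limma), and the batches gave 1.50, -0.37 and 1.95. Without cadmium replicate 2 the log2 fold change was 1.84 at an adjusted p of 0.0499, and without both libraries that stood apart it was 2.17 at 0.0156. Without cadmium replicate 1 it was 0.46 at 0.764, without cadmium replicate 3 it was 0.79 at 0.719, and without control replicate 3 it was 0.81 at 0.646 (limma). Scd2 and Elovl1 also passed without cadmium replicate 2, at adjusted p-values of 0.0347 and 0.0456, against 0.312 and 0.119 with all libraries. Without both libraries that stood apart the adjusted p was 0.0585 for Scd2 and 0.0422 for Elovl1 (limma). Leaving out any other single library brought none of Scd1, Scd2 and Elovl1 past the threshold. Scd2, a desaturase gene with little expression in adult liver, had 6.09, 1.51 and 3.53 FPKM in cadmium, against 1.89, 1.60 and 1.66 FPKM in controls. Scd1 and Scd2 are close paralogs, and how shared reads were counted is not given in the sources used here, so the low values of Scd2 are uncertain.

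Fads2, the delta-6 desaturase of polyunsaturated fatty acids, had 113, 118 and 128 FPKM in cadmium livers, against 125, 157 and 113 FPKM in control livers. The groups overlapped (log2 fold change -0.13, SE 0.16, adjusted p = 0.661, limma). Fads1, the delta-5 desaturase, had a log2 fold change of 0.35 (SE 0.19). Elovl2, which acts after Elovl5 on the longer polyunsaturated chains, had 72.5 to 81.4 FPKM in cadmium and 49.4 to 69.8 FPKM in controls, without overlap but at an adjusted p of 0.219. Elovl6, which extends palmitate to stearate, had 35.9, 8.63 and 14.9 FPKM in cadmium, against 19.7, 13.9 and 29.3 FPKM in controls.

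None of the 3 transcription factor genes passed the test. Srebf1 had 56.9, 37.9 and 36.6 FPKM in cadmium livers, against 51.3, 82.7 and 117 FPKM in control livers. Cadmium replicates 2 and 3 lay below every control library, and cadmium replicate 1 lay just above control replicate 1. The log2 fold change was -0.87 (SE 0.32, adjusted p = 0.140, limma), with 0.15, -1.11 and -1.65 in batches 1, 2 and 3. Without control replicate 1 it was -1.18 at an adjusted p of 0.0395. Leaving out any other single library gave adjusted p-values of 0.144 to 0.345, with the smallest log2 change, -0.59, without control replicate 3. The adjusted p was 0.0801 without both libraries that stood apart and 0.240 with the replicate block (limma). Gene values do not separate the SREBP-1a and SREBP-1c transcripts. Mlxipl had 25.5, 15.9 and 17.5 FPKM in cadmium livers, against 14.9, 13.9 and 16.4 FPKM in control livers. The groups overlapped (log2 fold change 0.34, SE 0.18, adjusted p = 0.268, limma). Pparg, a nuclear receptor gene best known from adipocytes, stayed at or under 3.02 FPKM in all 6 libraries.

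Of the 7 triglyceride synthesis genes 6 were tested and 0 passed, with a median log2 fold change of -0.12. Dgat2, which encodes an enzyme of the last step of triglyceride synthesis, had 128, 152 and 123 FPKM in cadmium livers, against 186, 135 and 174 FPKM in control livers. Gpam, the mitochondrial acyltransferase of the entry step, had 82.1, 27.4 and 48.8 FPKM in cadmium livers, against 30.6, 42.8 and 47.0 FPKM in control livers. The groups overlapped for both genes, and the log2 fold changes were -0.29 (SE 0.17) for Dgat2 and 0.28 (SE 0.40) for Gpam. Lpin2, a phosphatidate phosphatase gene, was lower in cadmium in each batch but overlapped between groups (log2 fold change -0.41, SE 0.17, adjusted p = 0.173, limma). Its paralog Lpin1 ran from 6.05 to 15.4 FPKM in cadmium and from 5.58 to 27.5 FPKM in controls. Agpat2, an acyltransferase gene, had a log2 fold change of 0.26 (SE 0.20), and Dgat1 had 0.04 (SE 0.12). Mogat1, a monoacylglycerol acyltransferase gene, had 13, 8 and 27 recovered reads in cadmium and 6, 6 and 29 in controls and was not tested.

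Of the 3 patatin family genes only Pnpla2 was tested. Pnpla2, the adipose triglyceride lipase gene, had 11.0, 14.7 and 15.7 FPKM in cadmium livers, against 12.2, 15.5 and 11.2 FPKM in control livers. The groups overlapped (log2 fold change 0.08, SE 0.17, adjusted p = 0.797, limma). Pnpla3, a lipid droplet protein gene that responds to SREBP-1c, had 9.39, 0.223 and 1.40 FPKM in cadmium livers, against 0.721, 0.280 and 0.614 FPKM in control livers. Only 2 libraries reached 1 FPKM, both from cadmium, so it was not tested, and the recovered reads behind the values were 756, 30 and 173 in cadmium and 80, 28 and 51 in controls. Pnpla5, a related lipase gene, had 108, 0 and 18 recovered reads in cadmium and 5, 0 and 0 in controls. For both genes cadmium replicate 1 was highest, cadmium replicate 3 next, and cadmium replicate 2 lay at or below the control range.

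Of the 7 droplet coat and fusion genes 4 were tested, and 1 rose. Plin3 (ENSMUSG00000024197, chromosome 17, 56277476 to 56292873, minus strand, GRCm38) had 9.55, 8.36 and 9.33 FPKM in cadmium livers, against 5.39, 4.81 and 5.22 FPKM in control livers. Both groups were tight and wide apart, at 9.08 ± 0.632 FPKM in cadmium and 5.14 ± 0.298 FPKM in controls (SD, n = 3 each). The log2 fold change was 0.71 (SE 0.09, adjusted p = 0.00891, limma), with 0.72, 0.69 and 0.73 in batches 1, 2 and 3. The adjusted p was 0.0511 without cadmium replicate 3.

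Plin2, the perilipin that coats droplets of fat-laden hepatocytes, had 45.9, 70.2 and 55.0 FPKM in cadmium livers, against 43.2, 48.5 and 44.3 FPKM in control livers. Cadmium was higher in each batch, but cadmium replicate 1 lay within the control range, and the adjusted p was 0.294 (log2 fold change 0.30, SE 0.17, limma). Cideb, which acts in lipoprotein lipidation and droplet fusion, had 63.8, 81.6 and 75.5 FPKM in cadmium livers, against 63.9, 70.7 and 63.1 FPKM in control livers. The groups overlapped (log2 fold change 0.15, SE 0.14, adjusted p = 0.522, limma). Plin5, a perilipin that links droplets to mitochondria, ran from 6.25 to 9.46 FPKM in cadmium and from 8.91 to 11.2 FPKM in controls (log2 fold change -0.33, SE 0.15, adjusted p = 0.221, limma). Plin4 and Cidec, best known from adipocytes and fatty liver, stayed under 1 FPKM in every library, with 29 to 217 recovered reads, and Cidea had 3 reads in cadmium replicate 2 and 0 in the other 5 libraries. The adipocyte markers Lep, Retn and Plin1 were at 0 in all 6 libraries, and the adipocyte list summed to 2.56 to 3.23 FPKM in cadmium and 2.14 to 2.17 FPKM in controls.

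Cd36, a fatty acid uptake receptor also present on macrophages and endothelium, had 22.3, 18.6 and 25.8 FPKM in cadmium livers, against 11.2, 22.5 and 25.7 FPKM in control livers. The groups overlapped (log2 fold change 0.22, SE 0.30, adjusted p = 0.693, limma).

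**Figure D3:**
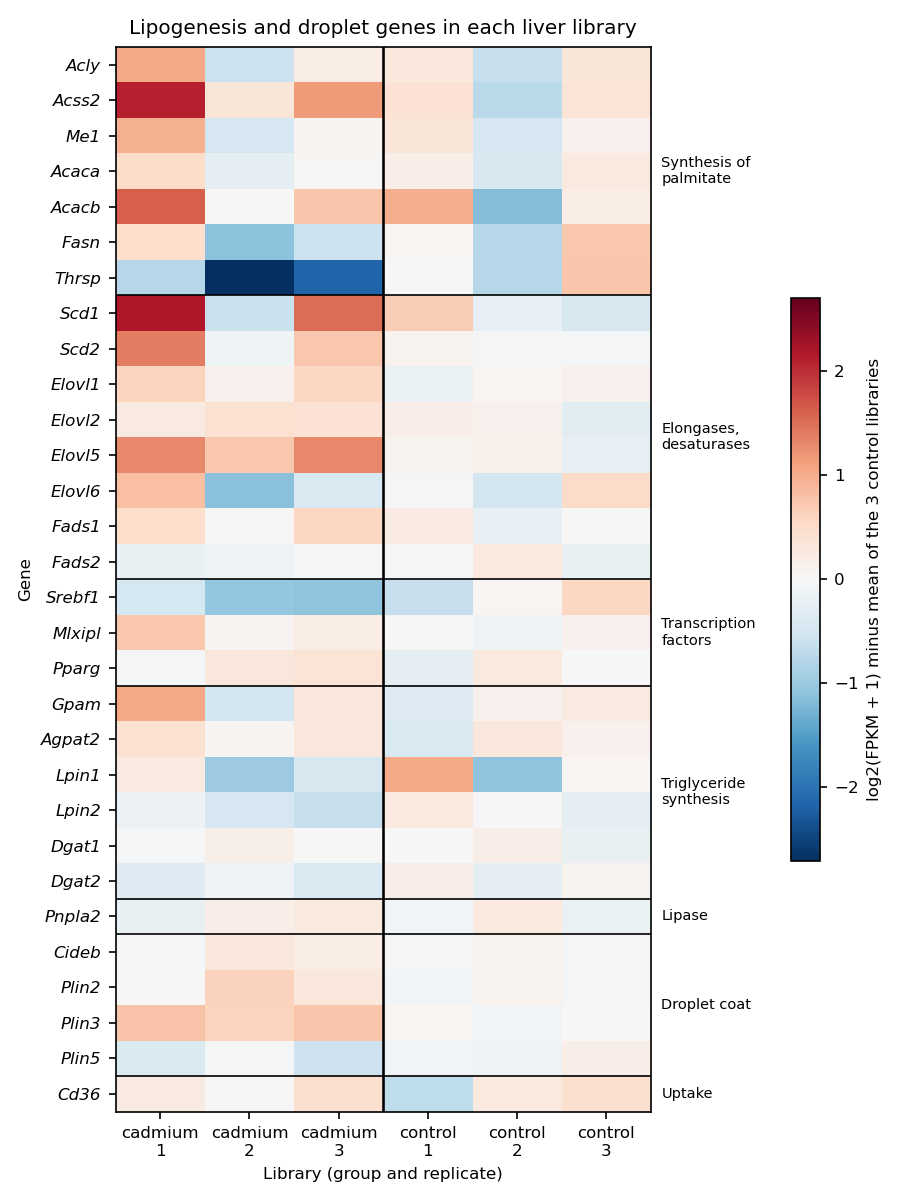
Color gives log2(FPKM + 1) of each of the 30 genes tested in each of the 6 libraries minus the gene's mean over controls, cadmium replicates on the left and genes grouped by role. Elovl5 and Plin3 are high in all 3 cadmium libraries, while all 7 palmitate synthesis genes are highest in cadmium replicate 1 and lowest in cadmium replicate 2 within the cadmium group.

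The coefficient of variation (SD over mean of FPKM) exceeded 50% among cadmium libraries for 10 of the 30 genes tested (33.3%), against 2.15% of all genes tested. The 10 were Fasn, Acly, Acss2, Me1, Acacb and Thrsp of palmitate synthesis, Scd1, Scd2 and Elovl6 of the elongases and desaturases, and Gpam. It exceeded 50% among control libraries for 3 of 30 (10%), against 3.88% of all genes, and these were Thrsp, Acacb and Lpin1. The median coefficient of variation of the 30 genes was 21.6% in cadmium and 19.9% in controls, against 9.71% and 12.7% over all genes. Relative to the control mean, Acss2 stood at 4.27, 1.20 and 2.17 times in cadmium replicates 1, 2 and 3, and Scd1 at 4.24, 0.624 and 2.69 times. Plin3 stood at 1.86, 1.63 and 1.82 times.

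**Figure D4:**
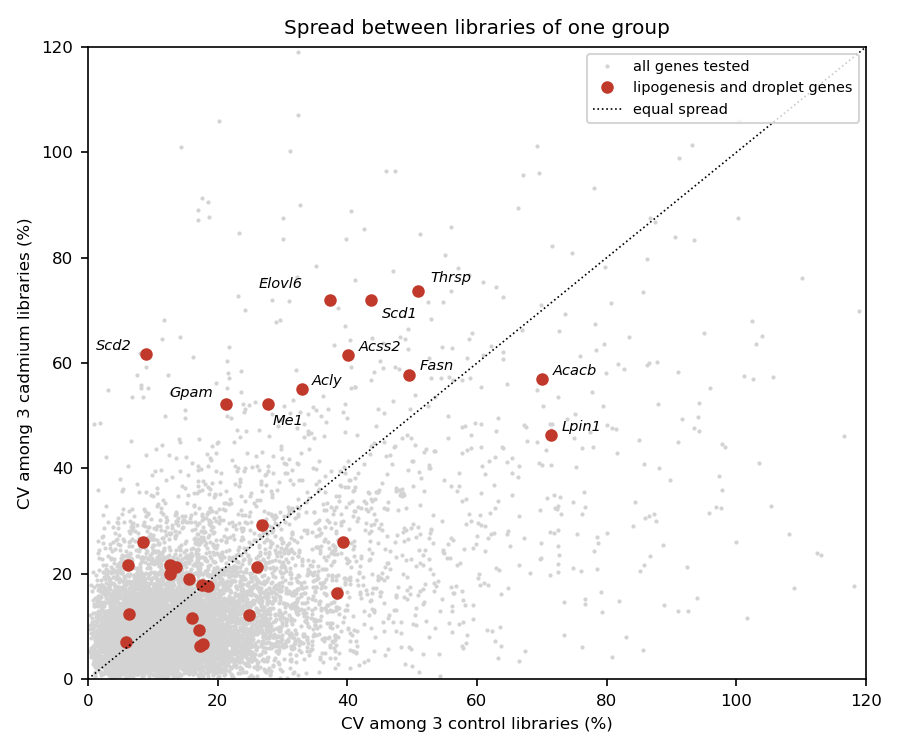
Coefficient of variation of FPKM (percent) within the cadmium group against that within the control group, for the 30 genes and for all genes tested, with 30 genes beyond the axis limit of 120% not drawn. The genes above 50% in the cadmium group include Acss2, Scd1 and Thrsp, and Plin3 lies near the origin.

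Within the cadmium group, 16 of the 30 genes (53.3%) were highest in replicate 1, next in replicate 3 and lowest in replicate 2, against 16.9% of all genes tested. These 16 held all 7 genes of acetyl-CoA supply and palmitate synthesis, 4 of 8 elongases and desaturases (Scd1, Scd2, Elovl1 and Elovl6), and 3 of 6 tested triglyceride synthesis genes (Gpam, Agpat2 and Lpin1). Mlxipl and Plin3 made up the rest, while Plin2, Cideb, Dgat1 and Elovl2 ran in the reverse order. Without cadmium replicate 2, which stood apart, 12 of the 30 genes were over 1.5 times higher in cadmium replicate 1 than in replicate 3 and 1 was over 1.5 times lower, against 3.05% and 2.67% of all genes. Among controls, 9 of 30 were over 1.5 times higher in replicate 1 than in replicate 2 and 4 were lower (4.31% and 12.3% of all genes), and 3 were higher in replicate 1 than in replicate 3 and 5 lower (3.94% and 8.71%). Without control replicate 1, which stood apart, 9 were higher in replicate 3 than in replicate 2 and 0 lower (3.55% and 5.64%).

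The same order was seen in 14 of 23 other lipogenesis genes (60.9%) and in 6 of 12 targets of SREBP2, the cholesterol synthesis regulator. The reverse order was seen in 7 of 10 markers of feeding and fasting (70%), against 26.5% of all genes. The list mixes markers of both states, so this share alone does not give a direction of feeding state. Pck1, the gene of a gluconeogenic enzyme that rises in fasting, named after its values were seen, had 185, 400 and 290 FPKM in cadmium, against 656, 627 and 471 FPKM in controls. None of the 10 markers passed the test between groups. Other measures moved in the same order: mitochondrial rRNA held 1.18%, 0.277% and 0.964% of reads in cadmium replicates 1, 2 and 3, and 6 of the 8 genes listed for RNA quality, all 6 mitochondrial, followed it. Recovered reads ran the other way, at 42115960, 68587128 and 65662619 in cadmium replicates 1, 2 and 3. The cholangiocyte list, in which Spp1 alone was tested, summed to 25.7, 7.56 and 22.6 FPKM in cadmium and 6.23, 9.96 and 8.70 FPKM in controls. The part of feeding state, RNA composition, depth or cell makeup in the spread was not tested.

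**Figure D5:**
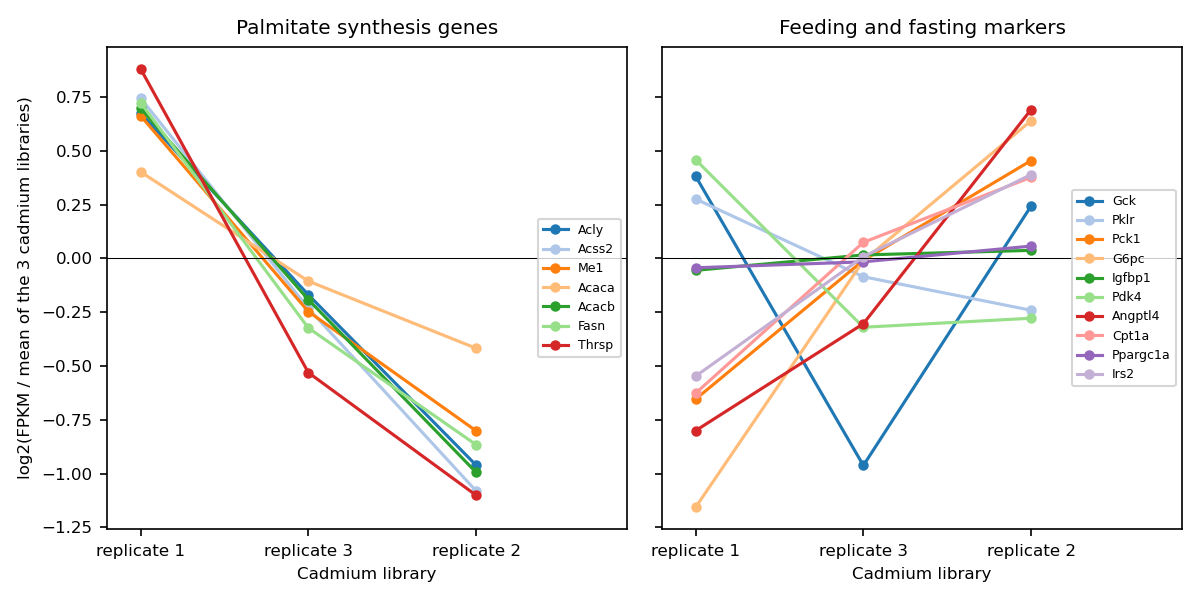
Log2 ratio of FPKM to the gene's mean over the 3 cadmium libraries, for the 7 palmitate synthesis genes (left) and the 10 feeding and fasting markers tested (right), with 1 line per gene and the libraries set in the order replicates 1, 3 and 2. All 7 lines on the left slope down, and 7 of 10 on the right slope up.

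By batch, 21, 17 and 19 of the 30 genes were higher in cadmium than in the control library of batches 1, 2 and 3, against 67.7%, 60% and 62.5% of all genes. The median difference of the 30 genes was 0.37, 0.04 and 0.18 on the log2 scale, against 0.13, 0.07 and 0.08 over all genes. In batches 1 and 2 a library that stood apart (control replicate 1, cadmium replicate 2) was set against another that did not. Cadmium was higher in all 3 batches for 10 genes (33.3%, against 36.9% of all genes): Acss2, Acacb, Elovl1, Elovl2, Elovl5, Fads1, Mlxipl, Pparg, Plin2 and Plin3. It was lower in all 3 for 2 genes, Thrsp and Lpin2 (6.67%, against 12.7% of all genes).

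Among 55 other genes of these pathways that were tested, 5 (9.09%) rose in cadmium, near the 7.86% of all genes, and 0 fell. Of the 5, Lpl passed the FPKM filter only through its cadmium libraries. The 5 passed under each scaling, but 2 genes were then called lower after quantile, upper quartile and median of ratios scaling, and 6 on the deposited log2 values. Of 23 other lipogenesis genes tested, 2 rose. Scap binds and escorts SREBP out of the endoplasmic reticulum, and Insig proteins retain that complex there by binding Scap. Insig2 had 22.3, 19.2 and 24.1 FPKM in cadmium livers, against 8.15, 11.9 and 11.4 FPKM in control livers (log2 fold change 1.00, SE 0.16, adjusted p = 0.0143, limma). Scap had 24.7, 21.5 and 22.1 FPKM in cadmium livers, against 14.8, 12.5 and 13.7 FPKM in control livers (log2 fold change 0.70, SE 0.11, adjusted p = 0.0143, limma). All 3 cadmium libraries exceeded all control libraries for both. None of 10 other triglyceride synthesis and secretion genes passed the test.

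Of 22 other droplet, lipolysis and uptake genes tested, 3 rose. Lpl, the lipoprotein lipase gene, had 1.33, 1.42 and 2.19 FPKM in cadmium livers, against 0.255, 0.612 and 0.359 FPKM in control livers (adjusted p = 0.0150, limma). Every control library lay below 1 FPKM, so Lpl entered the test only through the group where it was higher. Its call is therefore not independent of the filter. Lipa, the lysosomal acid lipase gene, had 28.1, 23.5 and 28.2 FPKM in cadmium livers, against 15.5, 18.1 and 16.3 FPKM in control livers (adjusted p = 0.0217, limma). Pnpla7, a lysophospholipase gene of the patatin family, had 7.48, 7.47 and 8.30 FPKM in cadmium livers, against 5.08, 4.59 and 4.81 FPKM in control livers (adjusted p = 0.0129, limma). For each of the 3 the groups did not overlap. Without cadmium replicate 3 none of the 5 genes passed. Insig2, Scap and Lipa also missed the threshold without cadmium replicate 1, and Lpl and Lipa without control replicate 3. With the replicate block Scap alone of the 5 passed, at an adjusted p of 0.0486 (limma).

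Some markers of other liver cells also differed between the groups, where 7.86% of all genes tested rose and 1.82% fell. Of the macrophage markers 3 of 8 tested rose, and the list summed to 69.3 to 81.0 FPKM in cadmium and 34.9 to 58.5 FPKM in controls. Of the stellate cell and fibroblast markers 8 of 10 rose, with sums of 41.1 to 45.3 FPKM in cadmium and 18.5 to 28.02 FPKM in controls. Of the endothelial markers 2 of 9 rose, with overlapping sums of 44.4 to 57.9 FPKM in cadmium and 33.1 to 48.4 FPKM in controls. Their part in the values of Elovl5, Plin3, Lpl, Lipa and Cd36 was not tested. Of the SREBP2 targets 3 of 12 rose (Hmgcs1, Mvd and Srebf2), and of the clock genes tested 3 of 15 rose and 8 fell. The hepatocyte markers summed to 20567 to 29497 FPKM in cadmium and 20186 to 28536 FPKM in controls, and 1 of 9, Tat, fell. None of the 10 lymphocyte markers reached the filter. With the replicate block 4 of the 8 stellate cell calls held (Col1a1, Col1a2, Col3a1 and Ngfr), as did 2 of 3 macrophage calls and 5 of 11 clock calls. The 2 endothelial calls, the 3 SREBP2 target calls and Tat were lost with it. Under each of the other scalings named above, the stellate cell gene Rgs5, the endothelial gene Stab1 and Srebf2 lost the call. Of these scalings, Lyve1, also endothelial, kept the call only with upper quartile scaling. Hmgcs1 lost it after upper quartile and median of ratios scaling, and Reln and Nfil3 on the deposited log2 values. Without cadmium replicate 3 the macrophage, endothelial and SREBP2 target genes named or counted here as higher all missed the threshold, while the stellate cell genes Col1a1, Col1a2, Col3a1 and Ngfr passed without any 1 library.

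In the authors' deposited table, Elovl5 (log2 fold change 0.94, FDR 1.26e-05) and Plin3 (0.64, FDR 1.52e-06) were higher in cadmium at an FDR of 0.05, as were 3.72% of the 34352 genes in it. The authors' deposited table also has 4 of the 36 genes lower, against 3.15% of all: Srebf1 (-1.06, FDR 0.000225), Lpin2 (-0.62, FDR 0.00942), Plin5 (-0.55, FDR 0.0193) and Plin4 (-0.79, FDR 0.0276). Both shares are taken over all 34352 genes, of which 9908 passed the FPKM filter, whereas 30 of the 36 genes passed it. The shares are therefore not like for like with the counts among the 36. Limma on the same deposited log2 values gave adjusted p-values of 0.0593 for Srebf1, 0.0713 for Lpin2 and 0.0702 for Plin5.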

How the data were processed

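Liver RNA of 6 libraries was analysed, 3 from cadmium-exposed and 3 from control mice, grouped by the labels. The authors deposited one table of FPKM for 55335 genes and one of log2 values for 34352 genes with symbols, which also holds the authors' log2 fold change, p-value and FDR. Undoing log2 and subtracting 1 gave whole multiples of 1 step per library, within 0.05 of a read for 100% of values above 0, so these are log2 values of reads divided by a size factor. Per the submitters' processing notes the authors used STAR 2.7.1a and cutadapt 1.1.8, MACS2 2.1.1 and SAMtools 1.3.1, and the mm10 genome, each without role or order. A count-based test package is named there too. Which counter, strand setting, annotation or statistical test was used is not stated. Gene positions are from GENCODE on GRCm38.

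Cadmium was compared with control on log2(FPKM + 1) by a two-sided moderated test (limma 3.58.1, R 4.3.3; trend and robust options on) across 9908 genes, those reaching 1 FPKM in at least 3 libraries. Fold changes on this scale understate the change of low genes. P-values were adjusted by Benjamini-Hochberg. The fit was first run on simulated reads with the same spread setting for all genes. That simulation held no batch effect and no library that stood apart, so it does not cover the spread seen here. Alternatives were another pseudocount, filters, scalings, the deposited log2 values, voom on the recovered reads, a replicate block and leaving out libraries.

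Each library's number is its labelled batch, so the pairing comes from the labels. Deviations from group means had correlations of -0.21, -0.23 and -0.02 for libraries sharing a number, and of -0.10 to 0.28 for the other pairs.

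The genes and lists were chosen with earlier results of these data known. Values of every library are given for the called genes of the lipogenesis, triglyceride and droplet lists and for the 2 genes of highest mean FPKM in each role. Called genes of the clock, SREBP2 target and cell type lists are counted or named only. Others are given by mean, range or fold change, and those given per library outside this rule (Acss2, Scd2, Elovl6, Pnpla5, Mogat1, Cidea, Pck1) were chosen after their values were seen. 1 gene of the feeding and fasting list is not reported here.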

Additional observations from a re-analysis of the deposited data

How the results depend on the processing

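Over the 9908 genes tested, the 779 higher calls became 720 with a pseudocount of 0.1 and 978 with voom on the recovered reads. They became 31 of 34351 genes tested with no filter on low values, and 205 of 3922 with at least 5 FPKM. Scaling gave 347 after quantile normalization, 510 after upper quartile scaling, 386 after median of ratios scaling and 381 on the deposited log2 values. The count was 184 with the replicate block, 78 to 539 without 1 library, and 478 without control replicate 1 and cadmium replicate 2 together. The 180 lower calls became 174 with that pseudocount, 202 with voom, 6 with no filter and 74 with at least 5 FPKM. They became 298 after quantile normalization, 233 after upper quartile scaling, 292 after median of ratios scaling and 493 on the deposited log2 values. With the block they were 64, without 1 library 23 to 242, and without both libraries that stood apart 244. Of the lipogenesis and droplet genes, 0 were called higher with no filter, 1 with the block (Plin3, adjusted p = 0.0420, limma), 0 to 5 without 1 library and 4 without both libraries that stood apart, and 0 to 1 were called lower without 1 library. With no filter the adjusted p was 0.0983 for Elovl5 and 0.0554 for Plin3. Leaving out a library reduces the samples, and dropping the filter raises the number of tests, and beyond that the cause was not tested. Neither Elovl5 nor Plin3 changed direction. The median log2 fold change of the genes exceeded that of all genes by 0.12, and by 0.07 to 0.21 over the alternatives. The median over all genes itself shifted with the scaling: it was 0.09 in FPKM, -0.06 on the deposited log2 scale and -0.01 once quantile normalized. Depth limits Pnpla5, Mogat1, Cidea, Cidec and Plin4, which had few reads.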

Other observations

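The following ratios of FPKM between genes of one library were chosen after the values were seen and carry no test. Acss2 over Acly, genes of enzymes that make acetyl-CoA from acetate and from citrate, was 0.438, 0.384 and 0.399 in cadmium replicates 1, 2 and 3, against 0.217, 0.175 and 0.201 in control replicates 1, 2 and 3. The use of either route was not measured. The 3 cadmium values lie close together although Acss2 itself varied by 3.54 times among these libraries. The control values also lie close together, with Acss2 varying by 2.33 times there. Both genes ran in the same order among the cadmium libraries. Elovl5 over Elovl6 was 4.39, 12.3 and 10.6 in cadmium, against 3.45, 5.04 and 1.84 in controls, so these groups overlap. Scd1 over Fasn was 12.1, 5.36 and 15.9 in cadmium, against 5.77, 5.47 and 1.66 in controls, with cadmium replicate 2 inside the control range.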
